A study of Mus musculus with 4 samples.

Results

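The Ink4a-Arf-Ink4b locus was read on a custom Agilent expression array by 584 tiling probes, 292 labelled sense strand and 292 labelled antisense strand, out of 43553 probes besides controls. The probes were chosen by the strand name that each carries in the array design, whatever their signal, and are called here by strand and by their number in the design. The RNA was that of primary fibroblasts from mouse embryos (MEFs), grown in DMEM with serum and harvested during serial passaging. Passage 2 cells were growing, and those of passage 7 stood at the onset of replicative senescence, a lasting arrest of cells passaged many times. The labels give no genotype, strain or treatment for either group. Per the labels, RNA of 3 independent cultures was pooled, and 2 arrays (Cy3, 1 colour) were hybridised for each passage. If both arrays of a passage hold the same pool, the p-values measure only the spread between arrays. All 4 arrays shared 1 slide, where each passage had its own positions: effects of passage and of position cannot be told apart.

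The locus encodes 3 inhibitors of cell division. Cdkn2b encodes p15Ink4b, and Cdkn2a encodes both p16Ink4a and p19Arf from separate first exons that are spliced to shared exons read in different frames. The Ink4 proteins bind and inhibit Cdk4 and Cdk6, which keeps the retinoblastoma protein active, and p19Arf binds Mdm2, which stabilises p53. The locus is kept silent in young fibroblasts by Polycomb complexes and is known for its rise as MEFs are passaged, and in human cells a long noncoding RNA is transcribed from it in antisense. The comparison of passage 7 with passage 2 addresses which stretches of the locus, on which strand, gave more or less RNA in senescent cells.

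The sources used here give neither the sequence nor the position of a tiling probe, nor whether sense names the probe's own strand or the strand of the RNA it captures. As landmarks, the RefSeq promoters of the 3 first exons are shown, each from 250 bases before to 50 bases after the transcription start, on the minus strand of chromosome 4 in build GRCm38.p6. They lie at chr4:89294570-89294869 for the upstream start of Cdkn2a (p19Arf), at chr4:89282143-89282442 for its downstream start (p16Ink4a), and at chr4:89310983-89311282 for Cdkn2b. Capitals mark GGGCGG, the letters of a GC box on either strand, and TGACGTCA, the letters of a cyclic AMP response element.
Cdkn2a upstream promoter: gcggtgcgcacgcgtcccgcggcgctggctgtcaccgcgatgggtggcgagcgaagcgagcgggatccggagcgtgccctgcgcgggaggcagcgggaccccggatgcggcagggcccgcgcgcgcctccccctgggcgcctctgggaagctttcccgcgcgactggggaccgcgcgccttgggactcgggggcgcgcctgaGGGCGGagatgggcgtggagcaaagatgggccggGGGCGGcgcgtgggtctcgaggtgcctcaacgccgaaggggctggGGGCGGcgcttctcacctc
Cdkn2a downstream promoter: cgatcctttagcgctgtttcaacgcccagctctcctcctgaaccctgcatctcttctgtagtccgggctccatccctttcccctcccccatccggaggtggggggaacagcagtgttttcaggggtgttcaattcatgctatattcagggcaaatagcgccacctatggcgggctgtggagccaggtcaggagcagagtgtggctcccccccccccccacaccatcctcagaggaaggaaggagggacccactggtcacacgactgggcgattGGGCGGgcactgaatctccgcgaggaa
Cdkn2b promoter: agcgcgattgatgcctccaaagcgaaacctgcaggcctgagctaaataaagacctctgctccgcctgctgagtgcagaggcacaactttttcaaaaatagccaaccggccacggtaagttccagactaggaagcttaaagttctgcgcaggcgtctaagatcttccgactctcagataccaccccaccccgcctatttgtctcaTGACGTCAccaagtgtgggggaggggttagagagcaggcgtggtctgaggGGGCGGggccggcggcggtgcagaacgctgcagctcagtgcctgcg
The upstream Cdkn2a promoter was the richest of the 3 in G and C, at 77.0% with 45 CpG pairs, and 97.6% of the 32851 mouse promoters of this length had a lower GC content. It held GGGCGG at 3 places, against 1 in each of the others, and 35.7% of all promoters held it. The downstream Cdkn2a promoter had 60.3% GC and 12 CpG pairs, and the Cdkn2b promoter 57.7% and 18. TGACGTCA stood once, in the Cdkn2b promoter, and in 1.79% of all promoters. Neither CACGTG (7.15% of all promoters) nor TATAAA (13.6%) was found on either strand of the 3 windows. These motifs do not overlap one another in these sequences, and they describe the windows alone.

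Signals are given as multiples of the array's own 75th percentile over non-control spots, and changes as log2 of passage 7 over passage 2. Because a probe's brightness depends on its sequence, tests compare arrays and not probes, and any ranking or matching of probes by level is a description. That percentile stood at 1024 and 1404 for passage 2 and at 963.7 and 402.3 for passage 7, in units of processed signal. This scaling moved the negative control spots by 0.94 on the log2 scale, so a probe at background has a scaled change near that value. Between 65.8% and 72.7% of all spots were well above background. The fibroblast label was checked on 9 markers such as collagens and vimentin, and all were well above background on every array. Of these, 1 was called lower, Pdgfra (-2.54 ± 0.27), and none higher. The summed multiples of other cell types' markers were 1.70 and 1.77 at passage 2 against 0.748 and 0.945 at passage 7 for macrophages, and 1.03 and 1.18 against 0.257 and 0.391 for epithelium. The macrophage sum is mostly Csf1r (1.365 and 1.425 against 0.483 and 0.705). Of the 5 macrophage markers tested 3 were called lower, while Cd14 changed by -0.02 and Ptprc was at background on every array. Of the 6 epithelial markers 3 were called lower, Krt8, Krt18 and Krt14, which make up most of that sum. Krt5 (0.345), Epcam (-0.70) and Cdh1 (-3.27) were not called. Endothelial markers summed to 0.385 to 0.453 on every array, and skeletal muscle markers to 8.44 and 11.9 against 21.3 and 23.3. That last sum is nearly all Acta1 (7.79 and 11.1 against 21.2 and 23.1), while Des and Myh3 were called lower and the list's median change was -0.44. Their part in the results was not tested, and in bulk RNA fewer cells of a type and less RNA per cell cannot be told apart.

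On each array a somewhat larger share of antisense than of sense probes gave signal. Among sense probes, 42.1% to 49.3% were well above background per array, and among antisense probes 51% to 54.8%. On all 4 arrays this held for 117 sense and 141 antisense probes, and on no array for 135 and 123. The remaining 40 sense and 28 antisense probes were above background on some arrays. A probe was tested where both arrays of at least 1 passage were well above background, which kept 134 sense and 153 antisense probes and left 158 and 139 untested. Few probes were detected in 1 passage alone: 2 sense and 5 antisense probes were above background on both passage 7 arrays and neither passage 2 array, and 3 sense and 1 antisense probe the other way round.

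Both strands of the locus held probes that rose at passage 7, and none that passed the test for a fall. Called means an adjusted p under 0.05 in limma, over all 30874 probes tested, and a change of at least 2-fold. Of the tested sense probes 19 were called higher (14.2%), and of the tested antisense probes 31 (20.3%), where 8.72% of all probes tested were called higher. No probe of either strand was called lower, where 8.53% of all probes were. At an unadjusted p under 0.05, limma gave 43 sense probes higher and 1 lower, and 65 antisense probes higher and 2 lower. The share of all probes at that unadjusted threshold was not computed, for this fit or for those below. These unadjusted counts therefore cannot be set against the array. Both passage 7 arrays lay above both passage 2 arrays for 66 of the tested sense probes (49.3%) and 95 of the tested antisense probes (62.1%), against 38.6% of all probes. The reverse order held for 6 sense (4.48%) and 5 antisense probes (3.27%), against 27.5% of all probes. Equal unscaled signal on every array also gives the first order, because the 75th percentiles of passage 7 were the lower ones. For probes well above background on all 4 arrays the median change was 0.81 (sense) and 0.67 (antisense). Both lie below the 0.94 of the negative controls. With the fit limited to probes above background on all 4 arrays, 20 of 117 sense and 24 of 141 antisense probes were called higher. Over the array that fit called 2660 of 27889 probes higher. The wider filter also lets in probes detected at 1 passage only. Of its calls, 1 sense and 5 antisense probes were at background on both passage 2 arrays. The main counts of 19 and 31 rest on the arrays used, and without passage 2 replicate 2 no probe of the whole array was called. Whichever array was left out, fewer antisense probes and fewer probes of the whole array were called higher. The sense count rose without passage 2 replicate 1 and fell without any other array. No probe of the array was called with normexp background correction, which gave 16 sense and 11 antisense probes higher at an unadjusted p under 0.05, or with the replicate number as a block, which gave 42 and 49.

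**Figure D1:**
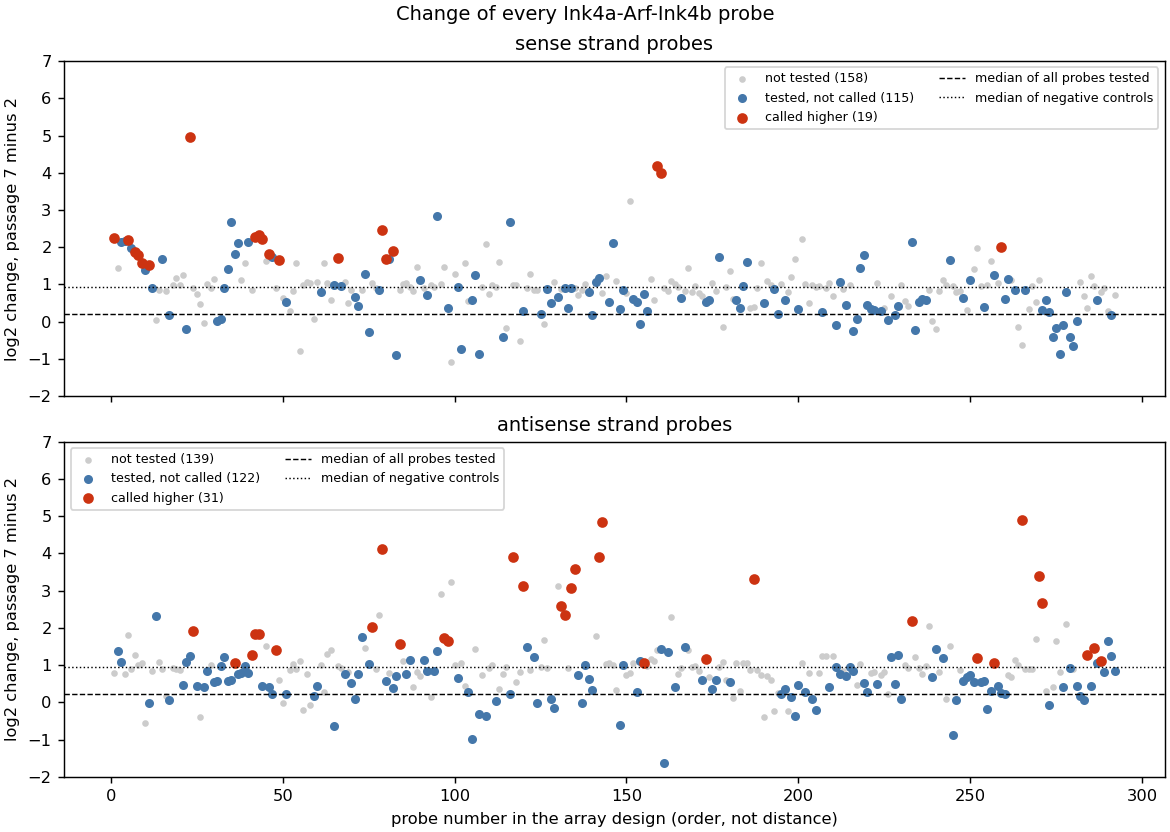
Log2 change at passage 7 against passage 2 (vertical axis) for each of the 292 sense probes (upper panel) and 292 antisense probes (lower panel) in order of their number in the array design (horizontal axis, order and not distance). Red points are the 19 sense and 31 antisense probes called higher, blue points were tested and not called, grey points were not tested, and the lines mark the median of all probes tested (0.21) and of the negative controls (0.94).

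The called probes were unevenly placed along the design numbers. Among sense probes, 12 of the 29 tested in numbers 1 to 50 were called, 4 of 19 in 51 to 100, none of 23 in 101 to 150, 2 of 20 in 151 to 200, none of 23 in 201 to 250 and 1 of 20 in 251 to 292. Among antisense probes the same windows gave 6 of 30, 5 of 24, 8 of 27, 3 of 19, 1 of 25 and 8 of 28. The sense calls therefore lay mostly in the first window. Antisense calls fell in each of the 6 windows, but 8.72% of all probes tested on the array were called higher. A window with 1 or 2 calls, such as 1 of 25, therefore says nothing particular about the locus. Differences between windows were not tested. A called probe had a called neighbour in 10 of the 19 sense and 13 of the 31 antisense cases. As a description, the changes of neighbouring tested probes correlated with r of 0.46 over 73 sense pairs and 0.39 over 91 antisense pairs, and these pairs share arrays and may share transcripts. Levels of neighbours over all 291 pairs correlated with r of 0.08 and 0.16.

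The first stretch of called sense probes was numbers 7 to 9, with 3 calls in a row. Sense 7, its most changed probe, read 0.348 and 0.202 at passage 2 and 1.02 and 0.937 at passage 7, a log2 change of 1.88 ± 0.32 (SE, 2 arrays per passage; adjusted p = 0.0277). Sense 8 rose from 1.42 and 0.895 to 3.82 and 3.90, by 1.78 ± 0.29. Sense 9 closed the run at 0.505 and 0.347 against 1.43 and 1.08, a change of 1.57 ± 0.29. In all 3 the passage 7 arrays lay above the passage 2 arrays and replicate 1 was the higher passage 2 array. Sense 1, 5 and 11 nearby were called as well. Sense 1 went from 0.818 and 0.421 to 2.87 and 2.76 (2.26 ± 0.37, adjusted p = 0.0255). Sense 11 went from 25.1 and 13.7 to 49.6 and 57.6 (1.53 ± 0.35, adjusted p = 0.0496). Sense 3, 4, 6 and 10, which lie between these, had changes of 2.15, 2.17, 1.99 and 1.38 with adjusted p-values of 0.0787, 0.0733, 0.0503 and 0.0668, and their passage 7 arrays also lay above both passage 2 arrays. With 1 uncalled probe allowed inside a run, numbers 5 to 11 formed 1 stretch with 5 calls.

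The second sense stretch, numbers 42 to 44, changed by 2.22 to 2.33. Sense 42 was dim and rose from 0.0186 and 0.00888 to 0.0687 and 0.0564, by 2.28 ± 0.41. Sense 43, the most changed, rose from 0.273 and 0.121 to 0.910 and 0.917, by 2.33 ± 0.44 (adjusted p = 0.0322). Sense 44 rose from 0.854 and 0.422 to 2.94 and 2.66, by 2.22 ± 0.39. With the authors' value table, sense 42, the dimmest of the 3, changed by 0.71 and was not called, against 2.01 and 1.96 for sense 43 and 44. Sense 46 (1.82 ± 0.40) and sense 49 (1.66 ± 0.38) were called beyond them. Ahead of them, sense 35 (2.69 ± 0.72, adjusted p = 0.0680) and sense 37 (2.12 ± 0.58, adjusted p = 0.0696) missed the threshold. Without passage 7 replicate 1, passage 7 replicate 2 or passage 2 replicate 2, none of sense 7, 8 and 43 passed.

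The antisense strand had its only run of 3 calls at almost the same numbers, 41 to 43. Antisense 41 rose from 0.0266 and 0.0178 to 0.0519 and 0.0537, by 1.28 ± 0.27. Antisense 42 read 0.337 and 0.336 at passage 2 and 1.42 and 1.01 at passage 7, a change of 1.84 ± 0.25 (adjusted p = 0.0188). Antisense 43 went from 0.517 and 0.478 to 2.24 and 1.39, by 1.83 ± 0.30. With the authors' value table antisense 41 changed by 0.60 and was not called, and antisense 42 and 43 by 1.501 and 1.528. In antisense 42 and 43 the passage 2 arrays lay close together and the passage 7 arrays apart, unlike in sense 42 to 44. Numbers 42, 43 and 79 were the ones called on both strands. The same number on the 2 strands need not mark the same place in the genome, and over the 72 numbers tested on both strands the changes correlated with r of 0.20, as a description. No run reached 5 called probes on either strand.

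On the scaled processed signal, the largest rises among probes measured on all 4 arrays came from 2 adjacent sense probes and from antisense probes 117 to 142. Sense 159 rose from 0.0273 and 0.00686 to 0.246 and 0.248, a change of 4.18 ± 0.69 (18.1-fold, adjusted p = 0.0260). Its neighbour sense 160 rose from 0.0162 and 0.00623 to 0.151 and 0.170, by 4.00 ± 0.50 (16-fold, adjusted p = 0.0163). Both are dim, and their passage 2 arrays lay well apart while the passage 7 arrays nearly coincided. Their sizes depended on the values used: with the authors' value table they changed by 2.55 and 2.09, below antisense 142 (3.61), 135 (3.27), 117 (3.06) and 134 (2.97). Sense 79 was next, from 0.219 and 0.102 to 0.872 and 0.789, by 2.47 ± 0.42 (adjusted p = 0.0268). With sense 80 and 82 (1.69 and 1.89) it formed a further stretch of 3 calls around the uncalled sense 81.

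Antisense 142 combined a strong signal with a large rise. It read 5.57 and 3.55 at passage 2 and 62.1 and 72.0 at passage 7, a change of 3.91 ± 0.29 (15.0-fold, adjusted p = 0.00955). Its passage 7 arrays lay far above both passage 2 arrays. Antisense 117 rose from 0.0844 and 0.0297 to 0.709 and 0.796, by 3.91 ± 0.54 (15.0-fold, adjusted p = 0.0194). Antisense 135 rose from 0.240 and 0.155 to 2.21 and 2.46, by 3.59 ± 0.29 (12.1-fold, adjusted p = 0.00960). Probes 132 and 134 beside it changed by 2.36 and 3.06. Antisense 131, well above background on 1 passage 2 array, changed by 2.58, and with the authors' value table by 0.74, which was not called. Antisense 134 had the tightest of these readings at passage 2, 0.278 and 0.262, against 1.97 and 2.57 at passage 7. Between them antisense 133 was not well above background on enough arrays to be tested. Antisense 120 rose from 1.101 and 0.287 to 5.96 and 4.01 (3.12 ± 0.70, adjusted p = 0.0464), with passage 2 arrays that stand far apart. Antisense 134, 135 and 142 were called under 12 of the 15 fits run, the most of any probe of the locus, and under none of normexp correction, the replicate block and the fit without passage 2 replicate 2.

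For 6 called probes the passage 2 level is only a bound, because the probe was at background on both passage 2 arrays. Antisense 143, next to antisense 142, read 0.00423 and 0.00326 at passage 2 and 0.112 and 0.102 at passage 7, at least 18.5-fold higher. Each bound sets the passage 7 mean against, per passage 2 array, the larger of the probe's own signal and the lowest signal well above background. Sense 23, alone among background-level neighbours, read 0.00452 and 0.00199 against 0.0917 and 0.0932, at least 16-fold higher. Antisense 79 was at least 8.63-fold higher, antisense 270 at least 7.41-fold, antisense 187 at least 7.28-fold and antisense 265 at least 6.51-fold. These bounds hold for the scaled processed signal alone. With the authors' value table the log2 changes were smaller, at 1.777 for antisense 143, 1.555 for sense 23 and 0.965 for antisense 79. Antisense 79 was not called there. Antisense 271 beside antisense 270 rose from 0.00589 and 0.00670 to 0.0364 and 0.0442, by 2.68 ± 0.22.

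Near the end of the design, antisense 284, 286 and 288 rose by smaller amounts. Antisense 284 went from 0.942 and 0.874 to 1.92 and 2.49, a change of 1.27 ± 0.23 (adjusted p = 0.03). Antisense 286 changed by 1.46 ± 0.32 and antisense 288 by 1.11 ± 0.25. The sense probes from 270 on held no call.

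Of the called probes, 18 sense and 23 antisense were measured on all 4 arrays. Their median change was 1.94 for sense, with a range of 1.53 to 4.18, and 1.74 for antisense, with a range of 1.05 to 3.91. Changes of 3 or more were found in 2 of these sense and 5 of these antisense probes, and changes under 2 in 10 and 15. In each of them the lower passage 7 array lay above the higher passage 2 array, by 0.98 to 3.22 on the log2 scale for sense (median 1.43) and by 0.79 to 3.48 for antisense (median 1.27). Such a gap was largely set by the choice of probes, which were called for a rise on these same arrays. The passage 2 arrays were unequal in the same direction in most of these probes. Replicate 1 exceeded replicate 2 in all 18 sense probes, by a median of 1.00, and in 21 of the 23 antisense probes, by a median of 0.36. At passage 7 the median differences between replicates were 0.06 and -0.06. Without passage 2 replicate 2 the changes of sense 159 and 160 were 3.18 and 3.31. Antisense 142 kept a change of 3.59 without that array.

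**Figure D2:**
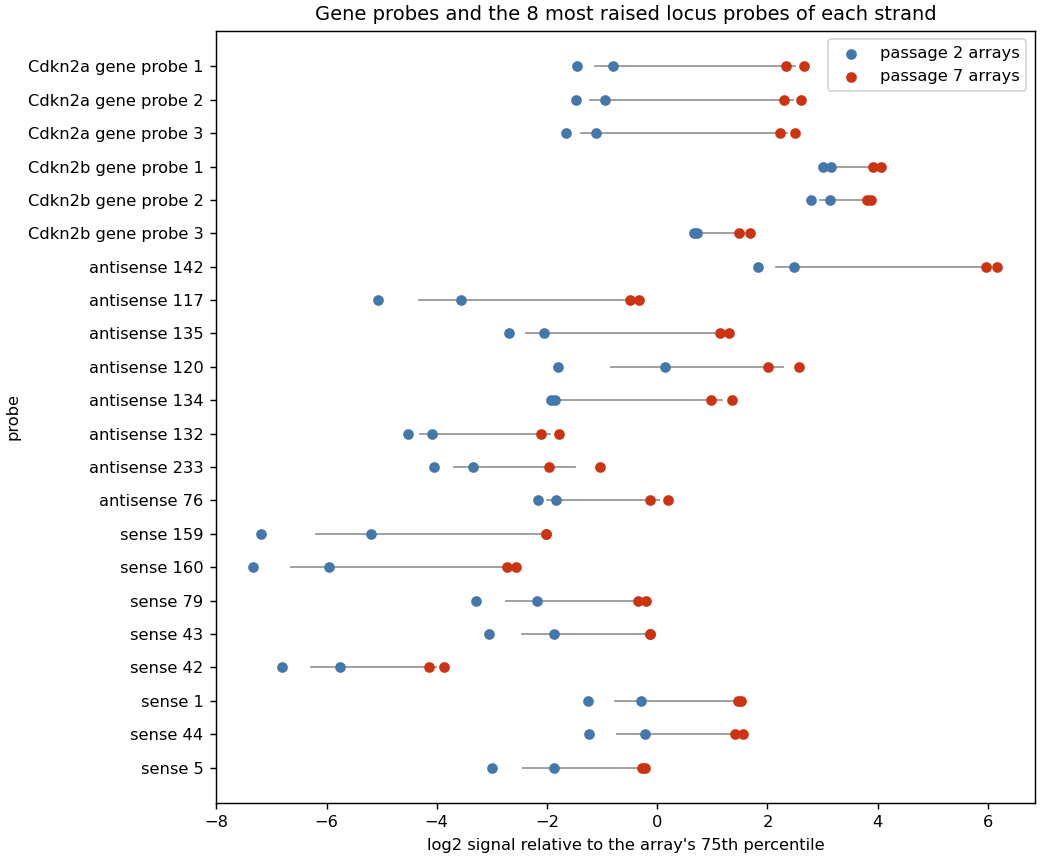
Log2 signal relative to the array's 75th percentile (horizontal axis) on the 2 passage 2 arrays (blue) and 2 passage 7 arrays (red) for the gene probes of Cdkn2a and Cdkn2b and the 8 most raised locus probes of each strand that were measured on all 4 arrays; a grey line joins the passage means. The 3 Cdkn2a gene probes and antisense 142, 135 and 134 show wide gaps between passages with close replicates, whereas sense 159 and 160 show passage 2 arrays that stand apart.

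The largest falls of the locus did not pass. Antisense 245 read 6.02 and 6.59 at passage 2 and 2.97 and 3.92 at passage 7, a change of -0.88 ± 0.23 (adjusted p = 0.0656). The antisense probe between numbers 104 and 106 read 0.189 and 0.127 against 0.0760 and 0.0798, a change of -0.99 ± 0.27 (adjusted p = 0.0687). In both, the passage 7 arrays lay below the passage 2 arrays. The largest negative value, -1.64 in antisense 161, had overlapping passages, with 0.0455 and 0.373 at passage 2 and 0.0288 and 0.0606 at passage 7. Sense 83 and 107 had the largest negative values of their strand, -0.90 and -0.87, also with overlap. Under other scalings antisense 245 was called lower in 4 of 15 fits, the probe between antisense 104 and 106 in 2 and sense 102 in 1.

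Most of the strongest signals of the locus belonged to probes that were not called, with antisense 142 as the exception among those below. Among sense probes 212, 65 and 132 were brightest at both passages, and among antisense probes 138 and 154, joined by 109 at passage 2 and by 142 at passage 7. Sense 212 read 199.9 and 131.3 at passage 2 and 256.8 and 441.0 at passage 7, a change of 1.05 ± 0.38 (adjusted p = 0.121). Antisense 138 read 218.2 and 139.3 against 253.8 and 487.4, a change of 1.01 ± 0.42 (adjusted p = 0.162). In unscaled processed signal, 9 sense and 2 antisense probes stayed above 50000 on every array, with a highest to lowest ratio between arrays of 1.17 to 1.90, although the arrays' 75th percentiles ranged from 402.3 to 1404. No spot was marked as saturated. The changes of these 11 probes were 0.84 to 1.28, where all probes over 10 times the 75th percentile had a median change of 0.57.

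Within each range of signal level that held its probes, the median change of each strand lay above that of all probes. At 0.3 to 1 times the 75th percentile, the median change was 2.05 over 12 sense probes and 0.44 over 22 antisense probes, against -0.01 over all probes tested there. At 1 to 10 times it was 0.74 over 20 sense and 1.13 over 24 antisense probes, against 0.16. At 0.03 to 0.1 times it was 0.61 and 0.69, against 0.31. Over all 292 probes of a strand, tested or not, the median change was 0.90 for sense and 0.85 for antisense. Those values are close to the 0.94 of the negative controls, and the probes above background on no array gave 0.92 and 0.90.

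**Figure D3:**
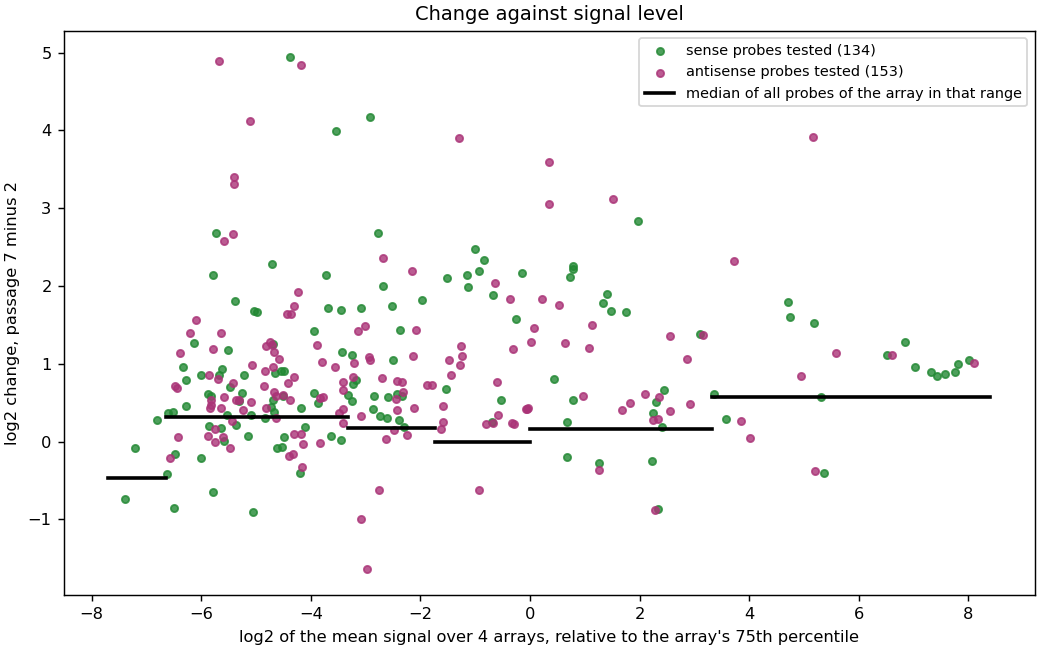
Log2 change at passage 7 against passage 2 (vertical axis) by the log2 of the mean signal over 4 arrays relative to the array's 75th percentile (horizontal axis), for the 134 sense (green) and 153 antisense probes (purple) tested. Black bars give the median change of all probes of the array in the same range of signal, from -0.47 in the dimmest to 0.57 in the brightest; most locus probes lie above the bars.

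The strands were compared by 1 value per array. The median of the 292 sense probes minus that of the 292 antisense probes was -0.81 and -0.67 at passage 2 and -0.89 and -1.23 at passage 7, on the log2 scale. Its change of -0.32 gave p = 0.333 in a two-sided exact permutation test, which cannot go lower with 2 arrays against 2. The sign turned among the probes well above background on all 4 arrays, where the change was 0.13 (exact permutation p = 0.667). It was 0.02 with normexp background correction (exact permutation p = 1), and -0.01 with means in place of medians. Background-level probes form a large share of both medians, as given above.

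The genes of the locus were also read by ordinary gene probes outside the tiling set. All 3 probes of Cdkn2a, which encodes p16Ink4a and p19Arf, rose, the brightest from 0.570 and 0.365 to 6.36 and 5.04 (3.63 ± 0.30, 12.4-fold, adjusted p = 0.0097). The other probes changed by 3.67 and 3.74, and which of the 2 products they capture was not determined here. Cdkn2b, which encodes p15Ink4b, went from 8.92 and 8.03 to 16.6 and 15.1, a change of 0.90 ± 0.20 (1.87-fold, adjusted p = 0.045). That is under the 2-fold limit, as for its other probes at 0.88 and 0.89. The rise of Cdkn2b depended on the scaling. It was 0.55 with quantile normalization or the authors' value table, 0.73 with the array median and 0.37 with normexp, each with an adjusted p over 0.05 in limma. The adjusted p stayed under 0.05 with the filter on all 4 arrays, with trend and robust variance, and with normexp followed by quantile normalization (change 0.49). Mtap, the neighbouring gene of methionine salvage, read 3.92 and 4.31 against 3.38 and 3.71 (-0.22 ± 0.20, adjusted p = 0.47). Dmrta1, the next gene on the other side, read 0.00807 and 0.0117 against 0.0123 and 0.0187, near background (0.64 ± 0.33, adjusted p = 0.23). The change of Cdkn2a was thus in the range of the most raised antisense tiling probes. That of Cdkn2b cannot be ranked against called tiling probes, because a call requires a change of at least 2-fold. Without passage 2 replicate 2, no gene passed and Cdkn2a had a change of 3.31.

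Among genes known to regulate the locus, more were called lower than higher. Of 48 regulators tested, 2 were called higher (4.17%) and 8 lower (16.7%), with a median change of -0.24, where 8.72% and 8.53% of all probes were called and their median was 0.21. Each gene counts once, by its probe with the highest mean, whereas the shares of the array count every probe tested. The share of all probes called lower also varied with signal level, from 17.1% in the dimmest range to 1.73% in the brightest. Ezh2, the Polycomb enzyme that methylates histone H3 over the locus, fell from 2.19 and 2.72 to 0.590 and 0.516 (-2.15 ± 0.22). Cbx2, a Polycomb reader of that mark, fell from 1.26 and 1.096 to 0.285 and 0.249 (-2.14 ± 0.21). E2f2, a cell cycle transcription factor, changed by -1.93 ± 0.22. Zbtb7a, a repressor of Arf, rose by 1.86 ± 0.28, and Kdm6b, a demethylase that removes the Polycomb mark, by 1.41 ± 0.24. Adjusted p-values of these 5 genes were 0.011 to 0.027 in limma. Among 26 partners and targets of the encoded proteins, 1 was called higher (3.85%) and 3 lower (11.5%), with a median of -0.13. Ccnd1, the cyclin partner of Cdk4, rose by 1.11 ± 0.19. The S-phase cyclin Ccna2 fell by 3.46 ± 0.22, Cdkn1b by 1.34 ± 0.21 and the retinoblastoma relative Rbl1 by 1.01 ± 0.21. Without passage 2 replicate 2 none of these genes passed, as no probe of the array did.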

How the data were processed

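Processed spot files were deposited for 4 arrays, made with Agilent Feature Extraction 10.5.1.1 on a design of build mm9, per the file headers. Their processed signal intensity is background-subtracted by the authors' scanner software, per the file headers. The deposited value table holds log2 values, and the sources used here do not state their normalization. It was used as an alternative.

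From the intensity, log2 minus each array's 75th percentile over 43803 non-control spots was computed. Outlier-flagged spots, 14 to 61 on an array and none of them a locus probe, were dropped and repeat spots averaged. Probes that both arrays of either passage detected well above background were tested across all genes and probes of the array in R 4.3.3, with the functions lmFit and eBayes of limma 3.58.1 (4 arrays, no covariate, Benjamini-Hochberg). The fit was tested on simulated data. Strand medians were compared by an exact permutation test over arrays.

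The members, gene lists and rules were chosen with earlier results of these data known. Named were the first, last and most changed probe of each run of at least 3 called neighbours, the 3 largest rises and falls per strand measured on all arrays, and the 3 brightest. Other probes were named after their values were seen. Genes were Cdkn2a, Cdkn2b, Mtap and Dmrta1, and up to 3 rises and 3 falls of the lists of regulators and of partners, by the probe with the highest mean. Normexp, planned on the mean spot signal, was run on the median with an offset of 50. Alternatives varied the background correction, scaling, filter, variance model, threshold, replicate block and arrays. The number of arrays limits the precision, and no array depth is defined. Promoters are those of RefSeq for GRCm38.p6.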

Additional observations from a re-analysis of the deposited data

How the results depend on the processing

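The 50 probes called higher had a positive change in every fit that tested them, while their calls depended on the fit. That constant sign was largely set by their choice, since they were picked for a rise on the same arrays. Sense and antisense counts called higher, 19 and 31, became 0 and 0 with normexp background correction, 39 and 38 with scaling to the array median, 1 and 11 with no filter on dim probes, 31 and 35 with trend and robust variance, and 36 and 45 at an adjusted p under 0.1. They were 20 and 15 with normexp followed by quantile normalization, an alternative chosen after seeing the data. Leaving out 1 array gave 0 to 35 sense and 0 to 28 antisense calls, with the lone array of a passage assumed to vary like the others. Called lower were 1 sense and 2 antisense probes with quantile normalization, 2 antisense probes with the array median, and 1 with the authors' value table or with normexp and quantile. Over all probes, higher against lower calls were 2691 and 2633, against 2244 and 3047 with quantile normalization, 2733 and 3741 with the array median and 1472 and 2822 with the authors' table, which also moved the median change of all probes from 0.21 to 0.04, 0.04 and -0.06. Of the 50 called probes, 42, 45 and 31 were shared with those 3 fits. The strand difference of -0.32 was reversed to 0.016 with normexp and to 0.13 among probes above background on all 4 arrays. It was -0.01 with means in place of medians, -0.15 with the authors' table, -0.07 with normexp and quantile, and -0.49 to -0.15 with 1 array left out (passage 7 replicate 1 and 2 at the ends). The cause was not tested.

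With the replicate number as a block, 0 sense and 0 antisense probes were called, and the strand difference was -0.32. Replicates with the same number share only that number: their deviations correlated at -0.164 over 30797 probes with a value on all 4 arrays, and at 0.109 over the 287 tested locus probes. The crossed pairing, added after seeing the data, gave 39 sense and 49 antisense calls, with 3431 probes of the whole array called higher. Runs of 5 called probes were not found, and with 1 gap allowed the sense strand held 3 runs and the antisense strand 3.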

Other observations

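Some pairs of opposite-strand probes read almost the same on all 4 arrays, a pattern looked for after the values were seen. Among probes above background on every array with a mean level over the 75th percentile, 5 pairs differed by less than 0.2 on the log2 scale on each array. They were sense 75 with antisense 199 (largest difference 0.09), sense 10 with antisense 2 (0.12), sense 212 with antisense 138 (0.14), sense 279 with antisense 109 (0.18) and sense 190 with antisense 153 (0.18). The numbers within a pair do not match, and levels at the same number on the 2 strands correlated with r of -0.01 over 292 numbers, as a description. Sense 10 changed by 1.38, and sense 212 and antisense 138 by 1.05 and 1.01. On all 4 arrays 28 sense and 23 antisense probes lay over the 75th percentile, so many pairs were compared. How many pairs would match by level alone was not tested. The sequences of the probes in these pairs were not analysed here.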
